A study of Homo sapiens with 12 samples.

Results

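The long arm of chromosome 22 is described here through 42 protein-coding genes, from MICAL3 and PEX26 near its proximal end to PMM1 and XRCC6, in the lung cancer line H1975 with and without added ZNF263. They are 42 of the 20003 named genes in the expression table and of the 301 chromosome 22 genes that passed the filter on low values in H1975. The 42 were picked by position along the arm after this region had been seen to be higher with ZNF263 in H1975. The H1975 change therefore chose the list, and the H1975 values of its genes are given as a description, without a test. All 42 passed the filter, which asked for at least 1 FPKM (fragments per gene, scaled for gene length and sequencing depth) in 2 of the 12 libraries. All but CSNK1E reached 1 FPKM in every library. In GRCh38 coordinates the list runs from 17787649 to 41664048 on chromosome 22, a stretch of 23.9 Mb.

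RNA was sequenced from PC9, HCC827 and H1975, 3 established lines of non-small cell lung cancer, each with a vector for ZNF263 or with a control vector. ZNF263 is a zinc finger transcription factor, and the study asks what its overexpression does in such lines. Each of the 6 groups has 2 libraries, written here as replicates 1 and 2. Per the labels, every group was kept in DMEM and had stepwise osimertinib, an inhibitor of the EGF receptor, so the control groups share that exposure. The titles add OR to each line's name without explaining it, and the labels do not say whether a line was 1 clone or several. They also do not say whether the 2 libraries of a group came from separate cultures, so a p-value covers no more than the spread between libraries, which may be technical. DNA copy number was not measured.

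Chromosome 22 is acrocentric: its short arm holds repeated ribosomal RNA genes, and its protein-coding genes lie on the long arm, 22q. That arm is gene-rich and is often altered in human disease, through the recurrent deletions of its proximal part, through the tumour suppressor genes NF2, SMARCB1 and CHEK2, and through BCR and EWSR1, which form fusion genes in leukaemia and sarcoma. The listed genes share no single pathway. They serve splicing, chromatin, DNA repair, translation, ubiquitin transfer, the cytoskeleton, membrane traffic and metabolism.

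Promoters are shown for the listed genes at the ends of the range of H1975 changes, CHEK2 and L3MBTL2 with the largest increases and CSNK1E and LIMK2 with the decreases. Each is a RefSeq sequence of GRCh38.p14, from 250 bases before to 50 bases after a transcription start, written 5′ to 3′ on the strand of the gene. Capitals mark GGGAGGA, a short G-rich run contained in the binding motif known for ZNF263, or its reverse complement.
CHEK2 promoter, chr22:28741771-28742070, minus strand: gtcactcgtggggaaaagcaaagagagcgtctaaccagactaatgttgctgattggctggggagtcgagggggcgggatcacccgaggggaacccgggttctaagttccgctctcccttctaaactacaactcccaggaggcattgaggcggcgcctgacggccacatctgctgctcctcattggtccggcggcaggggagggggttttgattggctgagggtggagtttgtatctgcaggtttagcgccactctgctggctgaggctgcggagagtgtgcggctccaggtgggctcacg
L3MBTL2 promoter, chr22:41205062-41205361, plus strand: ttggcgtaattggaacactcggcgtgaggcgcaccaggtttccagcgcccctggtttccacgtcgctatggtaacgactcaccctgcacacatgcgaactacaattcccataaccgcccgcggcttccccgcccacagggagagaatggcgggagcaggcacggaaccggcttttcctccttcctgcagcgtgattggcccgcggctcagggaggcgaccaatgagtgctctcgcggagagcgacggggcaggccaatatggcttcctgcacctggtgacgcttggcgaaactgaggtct
CSNK1E promoter, chr22:38318035-38318334, minus strand: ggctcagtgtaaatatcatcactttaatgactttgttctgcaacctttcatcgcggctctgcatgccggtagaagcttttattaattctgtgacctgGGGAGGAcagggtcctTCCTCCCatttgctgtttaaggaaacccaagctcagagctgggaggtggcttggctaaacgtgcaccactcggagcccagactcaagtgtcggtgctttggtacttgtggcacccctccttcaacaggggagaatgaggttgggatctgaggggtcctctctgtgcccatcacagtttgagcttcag
LIMK2 promoter, chr22:31212048-31212347, plus strand: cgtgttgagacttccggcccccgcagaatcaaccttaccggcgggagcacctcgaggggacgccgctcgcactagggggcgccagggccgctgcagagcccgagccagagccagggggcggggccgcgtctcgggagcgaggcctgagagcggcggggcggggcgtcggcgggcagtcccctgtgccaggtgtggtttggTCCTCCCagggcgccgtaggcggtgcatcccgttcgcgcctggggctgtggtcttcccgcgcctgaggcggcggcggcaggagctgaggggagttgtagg
The CSNK1E window shown holds 2 matches and the LIMK2 window shown 1, and the letters are not in those of CHEK2 and L3MBTL2. CSNK1E has another RefSeq window, not shown, with 0 matches, and LIMK2 another with 1. Among the other listed genes, YWHAH had a window with 2, and MICAL3, DRG1, DDX17, JOSD1, RBX1 and EP300 a window with 1. The windows matched for the remaining genes held none. Whether matches go with the direction of the difference was not tested. RefSeq windows were matched for 37 of the 42 genes, 44 windows in all, and the other 5 genes (PHF5A, TXN2, ADSL, ST13 and RANBP1) had no entry. Searched on both strands, with overlaps to other motifs not considered, GGGAGGA was in 10 of the 44 windows (22.7%). It was in 21.0% of the 14435 windows of genes tested in H1975, in 14.9% of 268 windows of other chromosome 22 genes tested there, and in 18.1% of all 35116 windows of this length. A match is a run of letters, not a measured binding site.

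ZNF263 itself was higher in every library labelled ZNF263. It stood at 10.2 and 9.63 FPKM in the H1975 control libraries and at 39.1 and 39.8 in the ZNF263 libraries (log2 difference 1.89 ± 0.061, SE, limma adjusted p = 5.95e-11). The log2 difference was 1.96 in PC9 (limma adjusted p = 2.83e-09) and 0.62 in HCC827 (4.17e-05). Total read counts were not used here; the smallest whole read numbers that fit the values ranged from 103 to 89285 per listed gene and H1975 library. Markers of cell type also differed in H1975, where 32.1% of all genes tested were called higher and 32.1% lower. Of 10 epithelial markers 1 was called higher and 6 lower with ZNF263. Their summed level went from between 4107 and 4117 FPKM to between 1890 and 1901, with the surfactant gene SFTPB at or near 0 throughout. Of 7 mesenchymal markers tested, of 10 listed, 5 were called higher and 2 lower. COL3A1, counted among the 5, stood at means of 0.14 and 0.31 FPKM and passed the filter only through HCC827. PDGFRB, also among the 5, stood at means of 0.12 and 1.62 FPKM. It passed the filter only through the H1975 ZNF263 libraries, where it is high, so its call carries no weight. The summed level of the 10 went from between 820.1 and 846 to between 1595 and 1604, with DCN, PDGFRA and THY1 at or near 0. None of 5 endothelial markers reached the filter, and they summed to at most 0.84 FPKM. The 6 immune markers summed to between 79.2 and 85.5 in the 4 libraries, with CD3E at or near 0. Of the 2 that passed the filter, CD14 rose from 3.09 to 20.2 FPKM (log2 change 2.40, limma adjusted p = 3.15e-07) and CD68 went from 82.0 to 61.4 (-0.41, 0.000159). The part of these shifts in the 22q values was not tested, and in such bulk samples fewer cells of a type and less RNA per cell cannot be told apart.

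In H1975, 40 of the 42 genes stood higher with ZNF263 and 2, LIMK2 and CSNK1E, stood lower, so the list is not raised throughout. For 39 genes both ZNF263 libraries lay above both control libraries, for 2 both lay below, and for PHF5A the groups overlapped. Over all 12258 genes tested in H1975, 41.7% had both ZNF263 libraries above and 40.8% had both below. In limma, 36 of the 42 were called higher at an adjusted p under 0.05, against 32.1% of all genes tested, and 1 was called lower, against 32.1%. Nothing is read from these counts, since this contrast chose the list.

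Most of the increases were moderate. The median fold of the 42 genes, ZNF263 over control in mean FPKM, was 1.38, with quartiles at 1.20 and 1.57 and a range from 0.790 to 2.69. CHEK2, L3MBTL2 and EIF4ENIF1 were the genes that stood more than 2-fold higher. On the log2(FPKM + 1) scale, which understates the change of weakly expressed genes, the median difference was 0.44, beside 0.003 for all genes tested. Comparing single libraries, each ZNF263 library minus each control library gave a median between 0.42 and 0.46 over the list, while replicate 2 minus replicate 1 within a group gave -0.017 and 0.0003. The summed level of the 42 genes was 1555 and 1538 FPKM in the control libraries and 2041 (2040.5) and 2041 (2040.8) in the ZNF263 libraries.

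**Figure D1:**
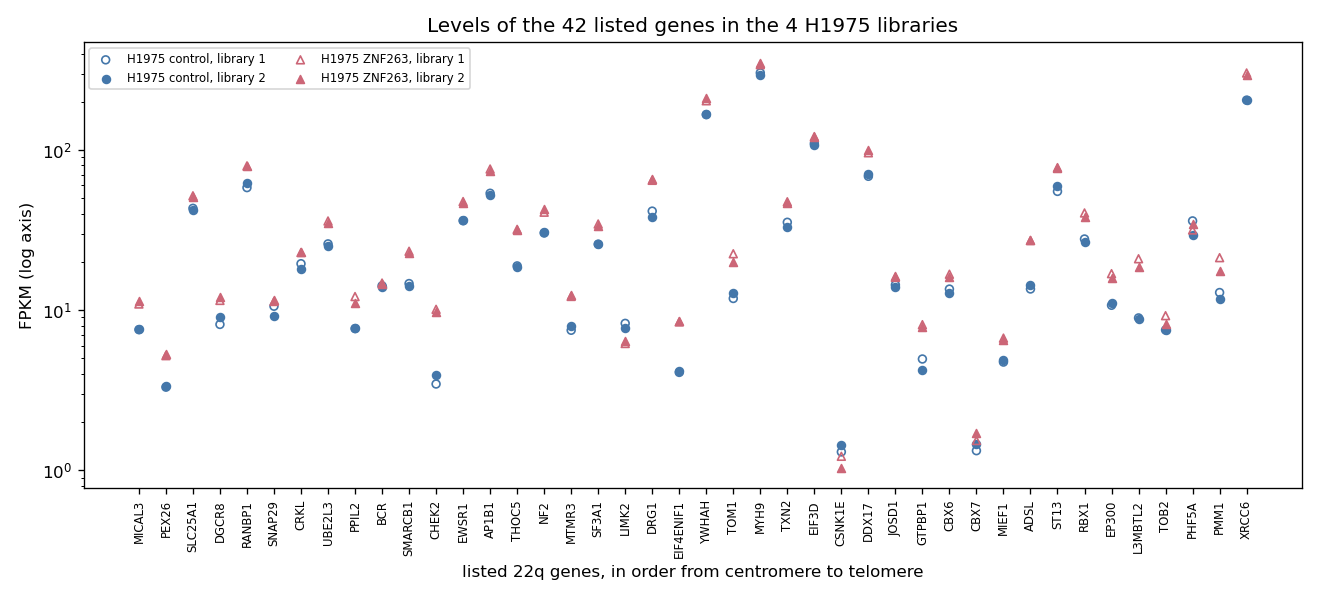
FPKM on a log axis of the 42 listed 22q genes in the 4 H1975 libraries, ordered from centromere to telomere, with circles for control, triangles for ZNF263, open symbols for replicate 1 and filled symbols for replicate 2. For 39 genes both triangles lie above both circles, for LIMK2 and CSNK1E both lie below, and for PHF5A they overlap.

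CHEK2, the checkpoint kinase activated by DNA double-strand breaks, had the largest difference. The gene lies on chromosome 22 at 28687743 to 28742422 on the minus strand. It stood at 3.46 and 3.93 FPKM in the control libraries and at 10.1 and 9.80 FPKM with ZNF263. Both ZNF263 libraries were far above both control libraries, by 2.69-fold in the means and 1.22 ± 0.077 (SE) on the log2 scale. XRCC6, the Ku70 subunit that binds DNA ends in non-homologous end joining, is the most distal gene of the list. Its level was 205 and 206 FPKM in the control libraries and 302 and 296 with ZNF263, a log2 difference of 0.54 ± 0.049. Pseudogenes named after CHEK2 (4) and XRCC6 (5) are annotated, as for BCR, AP1B1, SLC25A1, ST13 and TOB2, so how reads were divided between such copies is uncertain.

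Among genes of chromatin, L3MBTL2, a subunit of a variant polycomb complex, had the largest difference and the second largest of the list. It lies at 41205205 to 41231271 on the plus strand. It stood at 8.94 and 8.84 FPKM in control and at 20.9 and 18.5 FPKM with ZNF263, a 2.22-fold higher mean and a log2 difference of 1.06 ± 0.083 (SE). SMARCB1, a core subunit of the BAF nucleosome remodeller, was 1.61-fold higher (0.65 on the log2 scale), and EP300, a histone acetyltransferase, 1.499-fold (0.54). The chromodomain proteins of polycomb complexes were less apart: CBX6 was 1.24-fold higher (0.29). CBX7, at 39120167 to 39152674 on the minus strand, stood at 1.33 and 1.46 FPKM in control and at 1.53 and 1.72 with ZNF263, a log2 difference of 0.13 ± 0.089. The groups did not overlap for CBX7, but the difference was only moderately above its standard error.

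The genes of RNA processing ranged from a clear increase to none. THOC5, a subunit of the THO complex that couples transcription to mRNA export, lies at 29505879 to 29555216 on the minus strand. It stood at 18.9 and 18.6 FPKM in control and at 31.9 and 31.7 FPKM with ZNF263, a log2 difference of 0.74 ± 0.050 (SE). PPIL2, a spliceosomal cyclophilin, the RNA helicase DDX17 and DGCR8, the partner of DROSHA in microRNA processing, were 1.51-, 1.41- and 1.38-fold higher. The splicing factor SF3A1 and the RNA-binding protein EWSR1 were 1.31- and 1.30-fold higher. PHF5A, a small subunit of the SF3b splicing complex at 41459717 to 41468725 on the minus strand, was the exception. Its control libraries stood at 36.1 and 29.3 FPKM and its ZNF263 libraries at 31.6 and 34.6, a log2 difference of 0.024 ± 0.099. The groups overlapped. The difference ran from -0.12 to 0.17 over the alternatives and was below 0 without H1975 control replicate 2 and without H1975 ZNF263 replicate 2, where 39 of the 42 genes stood higher.

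All 4 genes of translation and its GTPases stood higher. EIF4ENIF1, which carries the cap-binding protein eIF4E into the nucleus and represses bound mRNA, lies at 31436977 to 31496108 on the minus strand. It stood at 4.09 and 4.15 FPKM in control and at 8.45 and 8.52 with ZNF263, a 2.06-fold higher mean and a log2 difference of 0.89 ± 0.071 (SE). Control and ZNF263 libraries were each nearly identical within their group. The GTPases GTPBP1 and DRG1 were 1.74- and 1.64-fold higher. EIF3D, a subunit of the initiation factor eIF3 at 36510850 to 36529436 on the minus strand, stood at 109.7 and 107 FPKM in control and at 121 (121.2 and 121.2) with ZNF263. That is a log2 difference of 0.16 ± 0.048, small beside the others though the groups did not overlap.

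The genes of metabolism, redox, folding and transport were all higher. ADSL, the adenylosuccinate lyase of purine synthesis, lies at 40346500 to 40390463 on the plus strand. It stood at 13.6 and 14.4 FPKM in control and at 27.2 and 27.4 with ZNF263, a 1.95-fold higher mean and a log2 difference of 0.92 ± 0.063 (SE). The phosphomannomutase PMM1 was 1.57-fold higher, the mitochondrial thioredoxin TXN2 1.38-fold, the Hsp70 co-chaperone ST13 1.34-fold, the Ran-binding protein RANBP1 1.32-fold and the mitochondrial citrate carrier SLC25A1 1.20-fold. Of the ubiquitin genes, RBX1, the RING subunit of cullin ligases, was 1.45-fold higher, the conjugating enzyme UBE2L3 1.39-fold and the deubiquitinase JOSD1 1.14-fold.

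Genes of vesicles and organelles stood higher as well. TOM1, an adaptor of endosomal sorting at 35299275 to 35347994 on the plus strand, stood at 11.8 and 12.7 FPKM in control and at 22.5 and 20 FPKM with ZNF263. Both ZNF263 libraries were well above both controls, with a log2 difference of 0.74 ± 0.076 (SE). The peroxisomal membrane anchor PEX26 was 1.57-fold higher, AP1B1, the beta subunit of the AP-1 clathrin adaptor, 1.41-fold, MIEF1, a mitochondrial receptor for the fission protein DRP1, 1.38-fold and the SNARE protein SNAP29 1.16-fold. TOB2, an antiproliferative protein that binds the mRNA deadenylation machinery, was also 1.16-fold higher.

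Both decreases fell in the group of signalling and cytoskeleton, which had a median log2 difference of 0.28 over 9 genes. LIMK2, a kinase that phosphorylates cofilin and so slows actin turnover, lies at 31212239 to 31280080 on the plus strand. It stood at 8.27 and 7.71 FPKM in the control libraries and at 6.19 and 6.43 with ZNF263, a log2 difference of -0.30 ± 0.094 (SE). Its neighbours in the list, SF3A1 before it and DRG1 after it, stood 1.31- and 1.64-fold higher. CSNK1E, a casein kinase of the circadian clock and of Wnt signalling, lies at 38290691 to 38318084 on the minus strand. It stood at 1.30 and 1.44 FPKM in control and at 1.22 and 1.03 with ZNF263, a log2 difference of -0.16 ± 0.089. Its groups did not overlap either, but it was among the weakest genes of the list, and 21.1% of its exon bases are also in a same-strand readthrough gene, TPTEP2-CSNK1E, between which reads may have been divided.

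The other genes of that group stood higher. The phosphoinositide phosphatase MTMR3 was 1.59-fold higher, the actin-oxidising enzyme MICAL3 1.48-fold, the tumour suppressor merlin, encoded by NF2, 1.36-fold, the 14-3-3 protein YWHAH 1.24-fold, the adaptor CRKL 1.22-fold and the non-muscle myosin heavy chain MYH9 1.16-fold. BCR, at 23179704 to 23318037 on the plus strand, stood at 14.2 and 13.9 FPKM in control and at 14.8 and 14.5 with ZNF263. Its log2 difference of 0.055 ± 0.064 (SE) was smaller than its standard error. Of the 42 genes, 9 share more than 10% of their exon bases with another annotated gene (MTMR3, PPIL2, CSNK1E, ADSL, CBX7, SMARCB1, MICAL3, DRG1 and L3MBTL2), and since no strand setting is given, reads of such genes may be mixed.

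The size of the difference in H1975 followed none of the simple properties closely across the 42 genes. Across genes, which share the same 4 libraries and are not independent, the Spearman correlation of the log2 difference was -0.15 with the mean control level, 0.030 with the start position and 0.36 with the length of the gene from start to end. The median log2 difference was 0.52 for the 23 genes on the plus strand and 0.38 for the 19 on the minus strand. The SD of the difference among the 42 genes was 0.30, several times the median SE of 0.065 of a single gene, so the genes differed from each other by more than the libraries did.

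Other genes of chromosome 22 shared the pattern. Of the 259 tested in H1975 outside the list, 216 stood higher with ZNF263, against 50.4% of all genes tested. The median log2 difference of the 259 was 0.43. limma called 183 of them higher and 25 lower, against 32.1% of all genes tested in each direction. That is again a description, since the region was chosen for its values. Within the stretch covered by the list 144 of 180 stood higher (median 0.42), beyond its distal end 67 of 74 (0.47) and before its proximal end 5 of 5 (0.41). In bins of 5 Mb from 15 Mb on, the medians of these other genes were 0.34, 0.40, 0.61, 0.47, 0.35, 0.55, 0.58 and 0.42. Every bin thus had a median above 0, to the last genes of the arm.

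The nearest tested genes that are not listed gave the same picture at both ends. Before PEX26, BID, a BH3-only protein that links death receptors to mitochondria, stood at 4.28 and 5.37 FPKM in control and at 13.8 and 13.1 with ZNF263 (log2 difference 1.32). IL17RA, an interleukin receptor, HDHD5, and BCL2L13, a mitochondrial BCL2 family protein, stood at 0.65, 0.41 and 0.39, and ATP6V1E1, a subunit of the proton pump of lysosomes, at 0.036. After PMM1, the sterol regulator SREBF2 stood at 0.75, DESI1 at 0.57, CCDC134 at 0.50 and the ribonucleoprotein SNU13 at 0.18. TNFRSF13C, which encodes the BAFF receptor found on B cells, lay under 0.2 FPKM in all 4 libraries, and its difference of 0.059 says little.

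Single genes on the arm departed far from their neighbours in both directions. The adenosine receptor ADORA2A stood at 1.14 and 0.815 FPKM in control and at 19.7 and 21.2 with ZNF263 (log2 difference 3.44). It was followed by KDELR3, a receptor that returns proteins to the endoplasmic reticulum (2.24), the purine receptor P2RX6 (1.84), the pentraxin receptor NPTXR (1.78) and the tumour antigen PRAME (1.56). KDELR3 and the listed gene DDX17 are neighbours that overlap over a few bases. HMOX1, the stress-induced haem oxygenase, stood at 145.6 and 135 FPKM in control and at 22.3 and 25.8 with ZNF263 (-2.50), and lies just distal to TOM1. Next came the ligand WNT7B (-1.54), the BH3-only protein BIK (-1.41), the matrix protein FBLN1 (-1.38) and the cobalamin carrier TCN2 (-1.30).

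**Figure D2:**
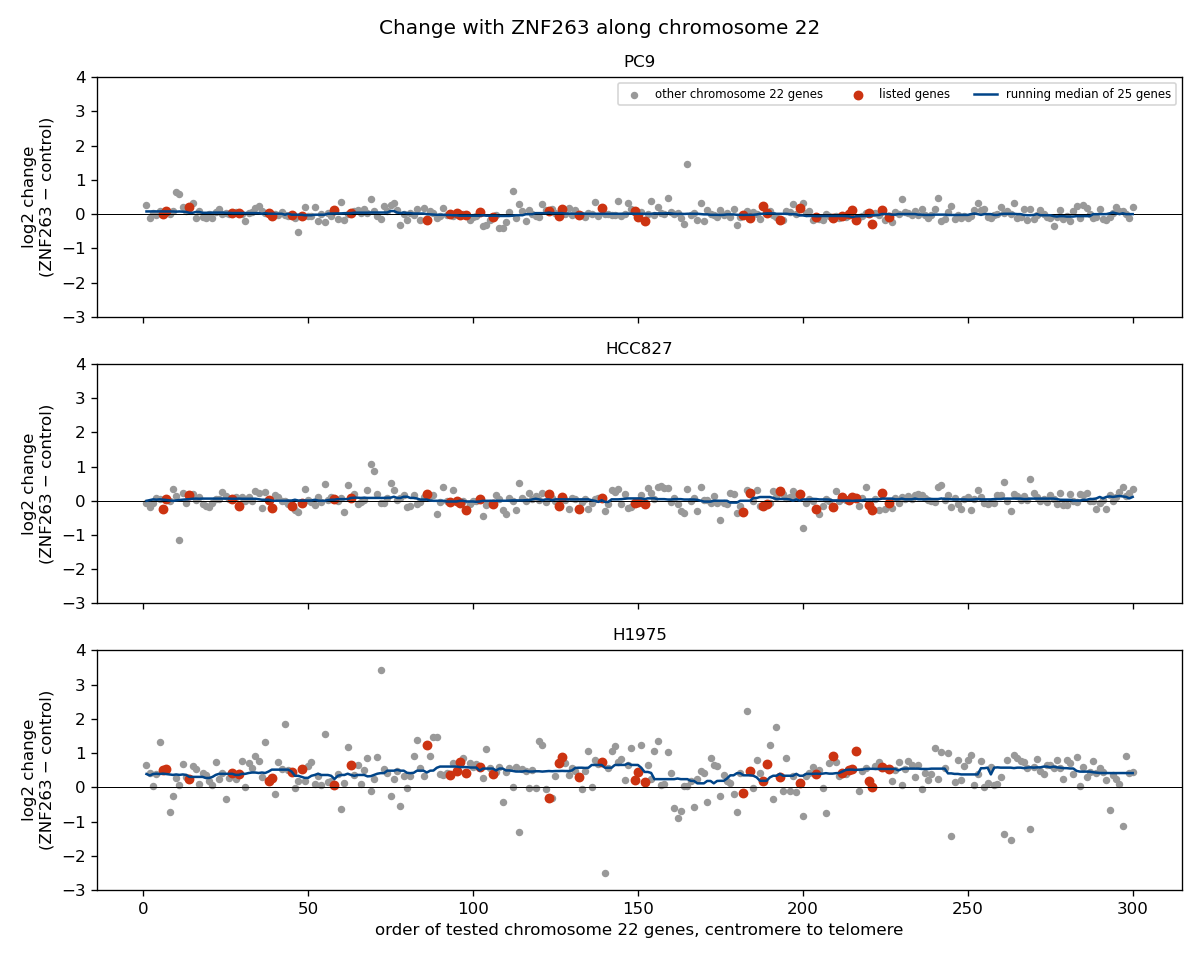
Log2 difference (ZNF263 minus control, log2(FPKM + 1) scale) of the 300 chromosome 22 genes tested in all 3 lines, in order from centromere to telomere, 1 panel per line, with the listed genes in red, other genes in grey and a blue running median of 25 genes. The running median lies above 0 along the whole arm in H1975 and close to 0 in PC9 and HCC827.

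Beside the other chromosomes, chromosome 22 had the highest median in H1975. Its 301 tested genes had a median log2 difference of 0.43, and 85.0% of them stood higher with ZNF263. The medians of the 22 other chromosomes lay between -0.20 and 0.27, with chromosome 6 at 0.27 and the X chromosome at 0.23 next below it and chromosome 15 lowest. These medians cover whole chromosomes, most with genes on both arms, and single arms elsewhere were not compared here. In PC9 the median of chromosome 22 was 0.007, inside the range of -0.045 to 0.032 of the others, and in HCC827 it was 0.036, inside -0.013 to 0.10.

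**Figure D3:**
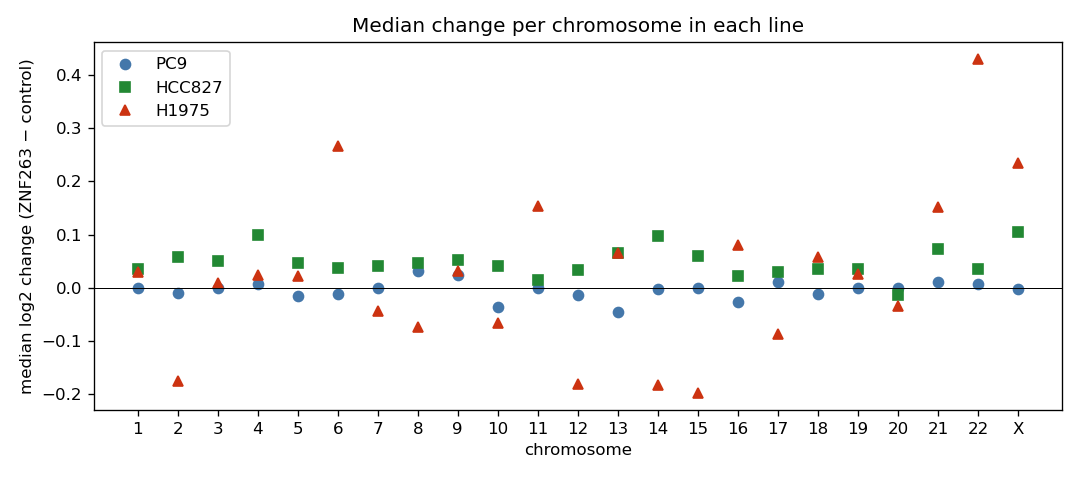
Median log2 difference (ZNF263 minus control) of the genes tested on each chromosome, with circles for PC9, squares for HCC827 and triangles for H1975. Chromosome 22 has the highest H1975 median, 0.43, while the PC9 and HCC827 medians of every chromosome lie between -0.045 and 0.10.

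The list was picked on H1975 values, and the question set for it was a shift there and not in PC9 or HCC827. Each gene was tested in PC9 and HCC827. Earlier results of these data were known, so those tests are no independent check of the list. In PC9, limma called 3 of the 42 genes, 2 higher and 1 lower, against 11.3% of all 12623 genes tested (7.21% higher and 4.12% lower). SLC25A1 stood at 64.2 and 62.5 FPKM in control and at 74.8 and 71.4 with ZNF263, a log2 change of 0.20 ± 0.056 (SE, limma adjusted p = 0.0356). JOSD1 went from 10.97 and 10.88 to 13.15 and 13.01 FPKM, a change of 0.24 ± 0.063 (limma adjusted p = 0.0284). EIF3D went from 134 and 130 (129.99) to 120 (119.6) and 112 FPKM, a change of -0.19 ± 0.048 (limma adjusted p = 0.0212). Each of these changes was small, and its groups did not overlap. Over the list 21 differences were above 0 and 21 below, with a median of -0.001. Both ZNF263 libraries lay above both control libraries for 13 genes, against 28.4% of all genes, and below them for 13, against 29.2%.

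The PC9 calls rested on all 4 libraries. limma called 0 of the 42 genes when PC9 control replicate 1, PC9 control replicate 2 or PC9 ZNF263 replicate 2 was left out, with 6, 3 and 6 genes at an unadjusted p under 0.05. It called 1, EIF3D, when PC9 ZNF263 replicate 1 was left out. A fit on the 4 PC9 libraries alone also called 0, with 11 at an unadjusted p under 0.05.

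In HCC827, limma called 9 of the 42 genes, 3 higher and 6 lower, against 19.5% of all 12266 genes tested (13% higher and 6.44% lower). CSNK1E is counted among the 6, although it passed the filter only through H1975; at a filter of 5 FPKM, which removes it, 8 of 41 were called, 3 higher and 5 lower. NF2 went from 19.2 and 19.7 FPKM in control to 16.0 and 16.1 with ZNF263, a log2 change of -0.26 ± 0.050 (SE, limma adjusted p = 0.00321). YWHAH went from 118 and 117 to 95.5 and 103 FPKM, a change of -0.24 ± 0.049 (limma adjusted p = 0.0044). These genes stood 1.36- and 1.24-fold higher in H1975. MICAL3 went from 21.2 and 20.5 to 17.6 and 16.9 FPKM, a change of -0.25 ± 0.058 (limma adjusted p = 0.00927). CRKL went from 25.6 and 24.3 to 21.9 and 21.2 FPKM, a change of -0.20 ± 0.055 (limma adjusted p = 0.0218). Both groups of libraries were apart for each gene. MIEF1 went from 7.87 and 7.58 to 6.72 and 5.97 FPKM, a change of -0.25 ± 0.074 (limma adjusted p = 0.0331). CSNK1E lay between 0.058 and 0.51 FPKM in HCC827, on 3 to 27 reads, too low to lean on (-0.32 ± 0.089, limma adjusted p = 0.0252).

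The 3 genes called higher in HCC827 were DDX17, CBX6 and SLC25A1. DDX17 went from 92.8 and 102 FPKM in control to 113 (113.1 and 112.8) with ZNF263, a log2 change of 0.21 ± 0.056 (SE, limma adjusted p = 0.0174). CBX6 went from 46.8 and 41.7 to 60.1 and 49.2 FPKM, a change of 0.29 ± 0.084 (limma adjusted p = 0.0293). SLC25A1 went from 65.8 and 58.8 to 70.5 and 70.0 FPKM (70.04), a change of 0.17 ± 0.056 (limma adjusted p = 0.0472). With median-of-ratios scaling SLC25A1 was called in neither HCC827 (limma adjusted p = 0.251) nor PC9 (0.0542). The groups did not overlap for any of the 9 genes. Over the list both ZNF263 libraries lay above both control libraries for 11 genes, against 35.2% of all genes, and below them for 17, against 18.7%. The median over the list was -0.033, beside 0.045 for all genes tested. Comparing single HCC827 libraries, each ZNF263 library minus each control library gave a median between -0.070 and 0.020 over the list. Control replicate 2 minus control replicate 1 gave -0.087. The list median thus lies within the spread between libraries of 1 group, and no fall of the list with ZNF263 is read from it or from these counts.

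The change in HCC827 differed from that in PC9 for 3 of the 42 genes, DDX17, CBX6 and JOSD1, against 9.6% of all genes, in a limma test of the difference itself. DDX17 and CBX6 were higher with ZNF263 in HCC827 relative to PC9, by 0.32 and 0.47 on the log2 scale, and JOSD1 was lower, at -0.40. The count is not above the share over all genes, so it is no result about the list.

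These HCC827 calls depended on single libraries and on the scaling. limma called 3 of the 42 without HCC827 ZNF263 replicate 1, 5 without HCC827 ZNF263 replicate 2, 5 without HCC827 control replicate 1 and 12 without HCC827 control replicate 2. NF2 kept its call in each of these 4 fits, while YWHAH lost it without HCC827 ZNF263 replicate 1 (-0.19, limma adjusted p = 0.0585) and MICAL3 without HCC827 ZNF263 replicate 2 (-0.23, limma adjusted p = 0.0648). CSNK1E and MIEF1 each lost theirs without HCC827 control replicate 1 (limma adjusted p = 0.191 and 0.11) and without 1 of the ZNF263 libraries, replicate 1 for CSNK1E (0.176) and replicate 2 for MIEF1 (0.211). CRKL and DDX17 kept theirs only in the fit without HCC827 control replicate 2 (highest limma adjusted p = 0.113 and 0.0922). CBX6 lost its call without HCC827 control replicate 2 and without HCC827 ZNF263 replicate 1 (limma adjusted p = 0.129 and 0.282), and SLC25A1 kept its call only in the fit without HCC827 control replicate 1 (highest limma adjusted p = 0.183). With median-of-ratios scaling limma called 0 of the 42 higher and 12 lower, with 2 higher and 18 lower at an unadjusted p under 0.05. A fit on the 4 HCC827 libraries alone called 0, with 10 at an unadjusted p under 0.05.

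The H1975 difference chose the list, so the counts that follow are a description. Set side by side, the difference in H1975 was above that in PC9 for 37 of the 42 genes, by a median of 0.47 on the log2 scale. It was above that in HCC827 for 39, by a median of 0.48. LIMK2 went the other way: it stood at 0.099 in PC9 (limma adjusted p = 0.584), at 0.20 in HCC827 (0.154) and at -0.30 in H1975. Across the 42 genes the Spearman correlation of the H1975 difference was -0.084 with that in PC9 and 0.20 with that in HCC827, so the order of the genes in H1975 was not that of the other lines. The differences also spread more widely in H1975, with an SD of 0.30 among genes against 0.11 in PC9 and 0.16 in HCC827. This was not particular to the list. Over all genes tested the quartiles were -0.30 and 0.29 in H1975, -0.090 and 0.091 in PC9 and -0.060 and 0.16 in HCC827. Other chromosome 22 genes had medians of 0.008 in PC9 and 0.040 in HCC827.

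**Figure D4:**
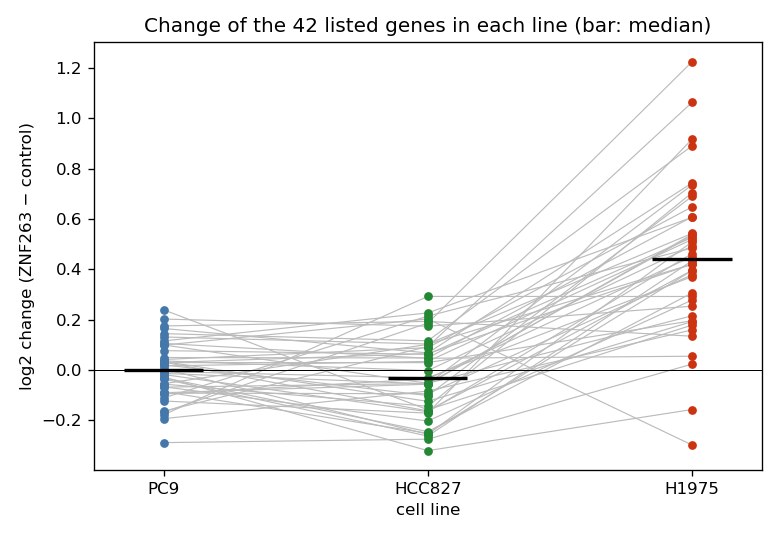
Log2 difference (ZNF263 minus control) of each of the 42 listed genes in PC9, HCC827 and H1975, with a line joining the same gene and a black bar at the median. The medians are -0.001, -0.033 and 0.44, and in H1975 only LIMK2 and CSNK1E lie below 0.

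Control levels also differed between lines. These levels come from tables that appear to have been processed separately, so they are given as a description. On the log2 scale the 42 genes were lower in H1975 control than in PC9 control by a median of -0.34, with 11 of 42 higher, and lower than in HCC827 control by a median of -0.40, with 9 of 42 higher. Over all genes the corresponding medians were 0.097 and 0.026. With ZNF263 the H1975 levels stood above the PC9 and HCC827 control levels by medians of 0.097 and 0.095 over the 42 genes, with 25 and 23 higher. Over all genes these medians were 0.11 and 0.031. The other chromosome 22 genes stood at -0.074 and -0.33 in H1975 control against PC9 and HCC827 control, with 123 of 259 and 83 of 258 higher. With ZNF263 they stood at 0.31 and 0.068. The list was chosen on the H1975 difference, in which its H1975 control levels enter. The summed level of the list with ZNF263 in H1975, 2041 FPKM, lay just above the 1950 (1949.6) to 2036 FPKM of the HCC827 libraries and above the 1637 to 1695 of the PC9 libraries.

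Many of the listed genes encode subunits of complexes whose other subunits lie on other chromosomes, and others have paralogs elsewhere. A list of 92 such partners, none on chromosome 22, was tested in H1975, where limma called 35 higher and 27 lower, and 30 were not called. These shares lie near the background of 32.1% higher and 32.1% lower (64.2% in all) over all genes tested in H1975, so the counts are no result about the partners. The median log2 change of the 92 was 0.050, beside 0.44 for the 42 genes and 0.003 for all genes. In PC9 limma called 4 of the 92, 1 higher and 3 lower, beside 11.3% of all genes, and in HCC827 13, 4 higher and 9 lower, beside 19.5%. The PC9 count was 2 without PC9 control replicate 1 and 2 without PC9 control replicate 2, and the HCC827 count was 20 without HCC827 control replicate 2 and 7 without HCC827 ZNF263 replicate 1. With median-of-ratios scaling 2 of the 92 were called higher and 16 lower in HCC827.

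The values of single partners are given by complex, beside that same background of calls. Of the 11 other BAF subunits tested 5 rose and 3 fell, with SMARCA4, the ATPase, up by 0.87 (limma adjusted p = 1.93e-07) and SMARCD1 at -0.48 (5.33e-06). The 9 other genes listed with SF3a and SF3b include the associated helicase DDX46. Of these 9 genes 3 rose and 1 fell, with SF3B3 up by 0.27 (limma adjusted p = 0.000881) and SF3B6 at -0.78 (1.28e-07). PHF5A and SF3A1 stood at 0.024 and 0.38. The 7 genes listed with THO include the associated export factors ALYREF and DDX39B. Of these 7 genes 3 rose and 4 were not called, with THOC2, on the X chromosome, up by 0.89 (limma adjusted p = 8.65e-07). DROSHA, the nuclease that works with DGCR8, rose by 0.19 (limma adjusted p = 0.00596).

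Partners in translation, ubiquitin transfer, DNA repair and adaptors follow. Of the 11 other subunits of eIF3 5 rose and 2 fell, with EIF3M up by 0.75 (limma adjusted p = 9.22e-08) and EIF3H at -0.60 (3.04e-06). Of the 8 cullin-RING genes 3 rose and 3 fell, with the X-linked scaffold CUL4B up by 1.24 (limma adjusted p = 3.43e-09) and RNF7, the paralog of RBX1, at -0.39 (0.000456). PRKDC, the catalytic subunit of DNA-PK, rose by 0.62 (limma adjusted p = 1.82e-07). XRCC5, the Ku80 subunit that pairs with XRCC6 and was picked out after its value was seen, stood at 0.013 (limma adjusted p = 0.842) while XRCC6 stood at 0.54. In the AP-1 adaptor 2 of 5 rose and 2 fell, with AP1M1 up by 0.85 (limma adjusted p = 3.43e-07) and AP1S3 at -2.05 (9.63e-11). In the polycomb complex PRC1 5 of 10 rose and 2 fell, with CBX2 up by 0.77 (limma adjusted p = 3.52e-06) and RNF2 at -0.38 (0.00369).

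Of the 28 paralogs 7 rose, 14 fell and 7 were not called in H1975, beside 32.1% of all genes tested in each direction. Of the paralogs of YWHAH alone, YWHAB, YWHAG, YWHAQ, YWHAZ and SFN fell and YWHAE rose. MYH10, the paralog of MYH9, rose by 0.97 (limma adjusted p = 4.62e-08), and the 14-3-3 gene SFN, a paralog of YWHAH, fell by 1.81 (1.43e-10). In 24 of the 28 pairs of a listed gene and its paralog the 22q gene had the higher value, with medians of 0.34 for the 22q genes and -0.048 for the paralogs and a median difference of 0.52. Some 22q genes enter more than 1 pair, YWHAH most often, and since their values chose the list these pair counts are a description.

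**Figure D5:**
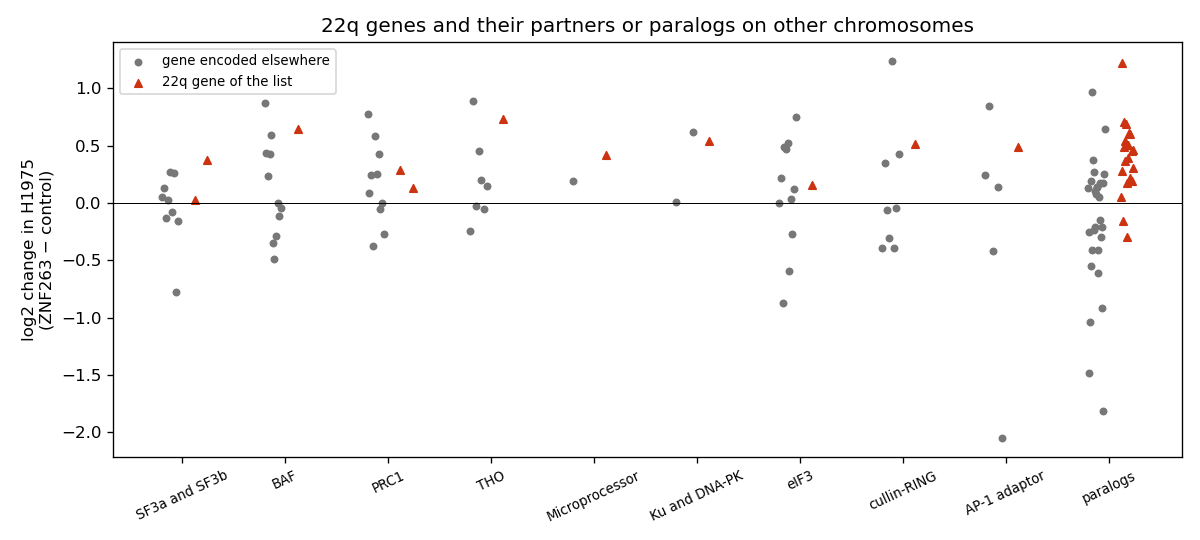
Log2 difference in H1975 (ZNF263 minus control) of the 92 partner genes on other chromosomes (grey circles) and of the 22q genes of each complex or paralog group (red triangles). In most complexes the partners lie on both sides of 0, while 22q genes below 0 are LIMK2 and CSNK1E, in the paralog column.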

How the data were processed

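The authors deposited FPKM values, 1 column per library; per the labels' protocols RNA was extracted with TRIZOL for SMARTER mRNA-seq libraries. The build was GRCh38.p13 per the submitters' processing notes, with aligner, counting tool, annotation and strand setting not given in the sources used here. Of 20030 entries, 27 with dates as names were left out. Positions come from GENCODE 29 (GRCh38; 737 genes not placed). HCC827 and H1975 lacked values for 3383 and 3339 genes that PC9 had, so differences were taken within a line.

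Values were tested as log2(FPKM + 1) with limma 3.58.1 in R 4.3.3, after a filter of at least 1 FPKM in 2 libraries, with 6 group means, a shared trended spread and two-sided tests. Benjamini-Hochberg adjustment covered all genes of a contrast, with calls at 0.05. The fit was tested on simulated data. Values were whole multiples of 1 read for at least 98% of 500 genes per line, and for 0% after shuffling.

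The 42 genes, the other lists and the tests were chosen with earlier results of these data known. Library values are given for the 6 largest and 6 smallest H1975 differences and for calls in PC9 or HCC827, and for XRCC6, BID, ADORA2A and HMOX1, which were added after their values were seen. Other named genes are the 5 nearest at each end, the 5 largest in each direction, and the called partners with the largest change. Replicate numbers did not pair libraries (correlation of deviations 0.037, 0.089 and -0.043 in PC9, HCC827 and H1975). Alternatives were pseudocounts of 0.1 and 0.5, no filter or at least 5 FPKM, median-of-ratios scaling, quantile normalization, the 4 libraries of a line alone, a replicate block and leaving out each library.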

Additional observations from a re-analysis of the deposited data

Results flagged for a closer look

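For 3 of the 42 genes the change with ZNF263 differed between HCC827 and PC9, in a limma test of that difference which called 9.6% of the 12266 genes tested. CBX6 was at -0.18 in PC9, where control stood at 35.6 and 34.3 FPKM and ZNF263 at 31.7 and 29.9, and at 0.29 in HCC827, a difference of 0.470 ± 0.12 (SE, limma adjusted p = 0.0270). DDX17 was at -0.11 in PC9, from 90.2 and 87.2 to 79.6 and 84.7 FPKM, and at 0.21 in HCC827, a difference of 0.325 ± 0.079 (0.3245; limma adjusted p = 0.0217). JOSD1 rose by 0.24 in PC9 and was at -0.16 in HCC827, from 14.05 and 12.38 to 11.70 and 11.75 FPKM, a difference of -0.397 ± 0.089 (limma adjusted p = 0.0150). The difference between lines did not pass for the other 39 genes. The count of 3 is not above the share over all genes, so it is no result about the list. This test was run with the main settings only and not with the alternatives.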

How the results depend on the processing

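In H1975 the median of the 42 genes was 0.44 to 0.46 without each library in turn and 0.46 with quantile normalization, and 32 to 35 of the 42 were called, against 37. The other chromosome 22 genes had a median of 0.43, 0.42 to 0.45 without each library, 0.56 and 0.47 with pseudocounts of 0.1 and 0.5, 0.29 without a filter, 0.50 with at least 5 FPKM and 0.45 with quantile normalization. No called value changed sign, while PHF5A, whose groups overlap, ran from -0.12 to 0.17 and TNFRSF13C, near 0 FPKM, stood at -0.010 without H1975 ZNF263 replicate 2. Over all genes 7870 were called in H1975 (6801 to 6891 without each library).

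In PC9 the median stayed between -0.023 and 0.015 without each library, with 0 to 1 of the 42 genes, 584 to 815 of all genes against 1430, and 2 to 3 partners called. The 4 PC9 libraries alone called 0 of the 42, 407 of all genes and 2 partners; without a filter 2 partners were called, and 7, 4 higher and 3 lower, with quantile normalization. In HCC827 the median was -0.062 to 0.0045 without each library and -0.10 with median-of-ratios scaling, with 3 to 12 of the 42 genes, 1035 to 3107 of all genes against 2386, and 7 to 20 partners called. The 4 HCC827 libraries alone called 0, 634 and 2. Over all genes the HCC827 split was 1596 higher and 790 lower as deposited, 1071 and 1308 with median-of-ratios scaling and 1058 and 1046 with quantile normalization. The cause of these shifts was not tested.

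With a replicate block, 3, 10 and 38 of the 42 genes were called in PC9, HCC827 and H1975 and 1364, 2262 and 7850 of all genes, and the numbers of a line are not a pairing. Each of the calls among the 42 genes in PC9 or HCC827 was lost in at least 1 alternative. With 2 libraries per group, differences near the standard error of 0.065 were not detectable.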
